A study of Mus musculus with 15 samples.

Results

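The G1 cyclins and their kinases were followed in primary male mouse embryonic fibroblasts, connective-tissue cells grown out of embryos, that lacked the histone deacetylase Hdac1, were depleted of its close relative Hdac2, or both. The 8 genes were the D-type cyclins Ccnd1, Ccnd2 and Ccnd3, the E-type cyclins Ccne1 and Ccne2, and the kinases Cdk2, Cdk4 and Cdk6. They were found as the 24 probe sets, of 45037 on the array, that the platform annotation assigns to exactly 1 of these symbols, and each gene was represented by its probe set with the highest mean over all 15 arrays. All 8 genes, of 18193 with a symbol, passed a filter on dim signals that 13373 genes passed.

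RNA was measured on 15 Affymetrix mouse expression arrays, 3 in each of 5 groups. Cells with floxed Hdac1 (fl/fl) had received 2 retroviruses. The first expressed Cre-ERT2, an enzyme that cuts out the floxed gene once tamoxifen is added. The second expressed a hairpin, called siRNA in the titles and micro-RNA in the design text, that was either scrambled or aimed at Hdac2. Control cells were fl/fl with the scrambled hairpin and ethanol. KO cells were fl/fl with the scrambled hairpin and 200 nM tamoxifen, Kd cells were fl/fl with the Hdac2 hairpin and ethanol, and cells with both perturbations were fl/fl with the Hdac2 hairpin and 200 nM tamoxifen. The fifth group had intact Hdac1 (+/+) and received 200 nM tamoxifen, and the viruses it carried are not given in the sources used here. KO and control cells therefore differed in tamoxifen as well as in Hdac1, and these cannot be told apart from that comparison alone. The labels do not tell whether the 3 replicates of a group were grown separately, and the p-values therefore refer to the spread between arrays, which may be technical.

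Progress through the G1 phase depends on cyclin-dependent kinases, which are active only when bound to a cyclin. Growth factors induce D-type cyclins, which activate Cdk4 and Cdk6, and these kinases start to phosphorylate the retinoblastoma protein and its relatives. E2F transcription factors are then released and induce, among others, the E-type cyclins, which activate Cdk2 and drive entry into S phase. Cdk inhibitors of the p21 (Cdkn1) and p16 (Cdkn2) families oppose these complexes.

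The promoters of Cdk4, Cdk2 and Ccnd3 are shown because both kinases fell and Ccnd3 rose in cells with both perturbations. The RefSeq promoter table (GRCm38.p6) held windows for 5 of the 8 genes, each running from 250 bases before to 50 after a transcript's start. Searched on both strands were the E-box CACGTG, bound by factors such as Myc, the E2F sites TTTCCCGC and TTTGGCGC, the core TGACGT of the cAMP response element and the GC box GGGCGG. Capitals mark E-boxes, E2F sites and TGACGT, each on either strand, and GC boxes are left in lower case.
Cdk4, chr10:127063285-127063584, plus strand: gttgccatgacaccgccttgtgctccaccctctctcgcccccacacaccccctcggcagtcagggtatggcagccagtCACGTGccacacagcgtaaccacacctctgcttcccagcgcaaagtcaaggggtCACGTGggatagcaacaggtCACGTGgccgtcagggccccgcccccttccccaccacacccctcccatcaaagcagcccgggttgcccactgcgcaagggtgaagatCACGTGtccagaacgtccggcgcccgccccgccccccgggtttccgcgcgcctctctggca
Cdk2, chr10:128705002-128705301, minus strand: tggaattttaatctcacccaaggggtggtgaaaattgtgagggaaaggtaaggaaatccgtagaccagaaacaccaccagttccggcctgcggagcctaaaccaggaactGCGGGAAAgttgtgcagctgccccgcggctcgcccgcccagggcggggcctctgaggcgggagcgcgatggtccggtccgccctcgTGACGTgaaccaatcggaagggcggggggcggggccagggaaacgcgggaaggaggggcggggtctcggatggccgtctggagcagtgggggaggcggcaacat
Ccnd3, chr17:47593217-47593516, plus strand: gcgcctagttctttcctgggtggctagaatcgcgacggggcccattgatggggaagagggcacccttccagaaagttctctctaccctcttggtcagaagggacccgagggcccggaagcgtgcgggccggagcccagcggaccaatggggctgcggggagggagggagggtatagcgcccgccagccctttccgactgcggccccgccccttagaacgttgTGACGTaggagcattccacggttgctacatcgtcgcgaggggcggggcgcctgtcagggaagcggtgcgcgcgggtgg
The Cdk4 window held 4 E-boxes. Of 32851 windows of the same length in the table, 7.15% held at least 1 E-box and 0.0244% held 4 or more. The Cdk2 window held 1 TTTCCCGC site, read on the opposite strand as GCGGGAAA, which 1.07% of windows held, and 1 TGACGT, which 7.51% held. The Ccnd3 window, at the downstream of its 2 listed starts, held 1 TGACGT and neither an E-box nor an E2F site of the forms searched. GC boxes numbered 3 for Cdk4, 6 for Cdk2 and 2 for Ccnd3, where 35.7% of windows held any and 5.49% held 4 or more. Among windows not shown, that of Cdk6, which did not pass against control, held 1 E-box and 0 GC boxes. That of Ccne1 held 4 GC boxes, that of the upstream Ccnd3 start 2, and neither held another site searched. These are matches of letters, and binding of any factor was not measured.

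Before the genes are taken in turn, the arrays were checked against their labels. Hdac1 averaged 3557 in control and 161 in KO cells and 156 with both, and Hdac2 averaged 7051 in control, 958 in Kd cells and 1025 with both, as the labels name them. Fibroblast markers were present throughout, with all 10 of 10 passing the filter and Col1a1 between 21040 and 33470. Of the 10, S100a4 (839 to 25920), Thy1 (109 to 1299) and Pdgfra (652 to 2205) varied most between arrays or were dimmest. S100a4 differed by group, with a log2 change of -4.44 with both perturbations against control (limma adjusted p = 5.6e-15). Defining markers of leukocytes (Ptprc, at most 16.03), endothelium (Pecam1, at most 14.7) and skeletal muscle (Myod1, at most 14.5) stayed below the lowest array median of 24.1. Other genes on these lists did not: 5 of 8 leukocyte markers passed the filter, with Cd14 at 125.5 to 328, Csf1r at 58.7 to 208 and Cd68 at up to 83.7, and so did 3 of 5 muscle markers, with Actc1 at up to 52.4. The summed endothelial markers ran from 77.5 to 98.04 in the other groups and from 137 to 176 with both perturbations, where Kdr, at up to 94.3, was the 1 of 6 that passed the filter, and the summed muscle markers ran from 80.8 to 96.1 against 130 to 150. The 8 leukocyte markers summed to 437 to 650 in KO cells and 338 to 562 in the other groups. The epithelial markers summed to 134 to 163 over all arrays, and the neuronal and glial ones to 137 to 142 with both perturbations and 107 to 134 otherwise. The part of other cell types in the results was not tested. Array medians ran from 29.1 to 30.7 with both perturbations and from 24.1 to 28.6 otherwise. In bulk RNA, fewer cells that express a gene and less RNA per cell cannot be told apart.

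**Figure D1:**
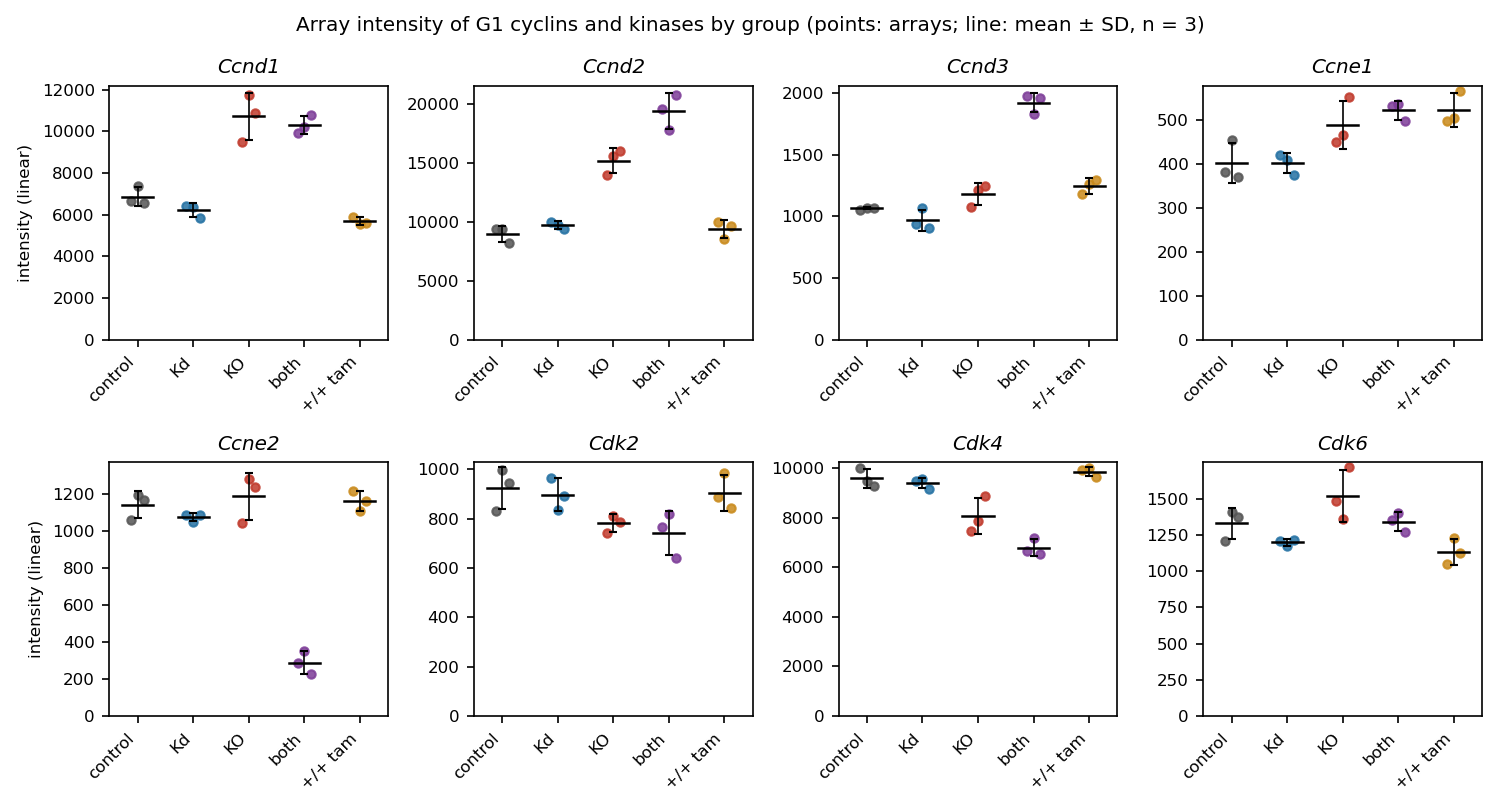
Linear array intensity of each of the 8 genes (y axis, from 0) in the 5 groups (x axis), with 1 point per array and a bar for the mean ± SD (n = 3). Ccnd1 and Ccnd2 were high in KO cells and in cells with both perturbations, Ccnd3 was high and Ccne2 low in cells with both, and Cdk4 was lowest there.

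Among the D-type cyclins, Ccnd1 and Ccnd2 rose both in KO cells and with both perturbations, Ccnd2 more so with both, and Ccnd3 rose with both by more than the sum of its single changes. Ccnd1 (gene 12443, chr7:144929931-144939831 on GRCm38.p6), the cyclin most tied to growth factor signals, gave intensities of 6665, 7377 and 6539 in control, 6425, 6376 and 5846 in Kd and 5893, 5552 and 5600 in +/+ cells. In KO cells it gave 9494, 11759 and 10905, and with both perturbations 9939, 10202 and 10791. Every array with Hdac1 deleted lay above every array with Hdac1 intact, and the KO and combined arrays overlapped. Ccnd1 rose by a log2 value of 0.64 ± 0.08 (SE) in KO against control, a 1.56-fold difference (limma adjusted p = 3.69e-05), and by 0.59 ± 0.08 with both (adjusted p = 7.18e-06). Against +/+ cells, which also had tamoxifen, it was 1.88-fold higher in KO cells (adjusted p = 4.24e-07). Cells with both differed from KO cells by -0.05 (95% interval -0.22 to 0.12), so a difference of the size seen against control lay outside the interval.

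Ccnd2 (gene 12444, chr6:127125162-127152188), which shares the Cdk4 and Cdk6 partners of Ccnd1, stood at 9367, 9401 and 8189 in control, 10018, 9777 and 9399 in Kd and 9997, 8526 and 9684 in +/+ cells. It stood at 13991, 15590 and 15991 in KO cells and at 19583, 17826 and 20833 with both perturbations. The groups formed 3 steps that did not overlap: the groups with Hdac1 intact, KO cells, and cells with both. The rise was 1.69-fold in KO (log2 0.76 ± 0.08, adjusted p = 1.33e-05) and 2.16-fold with both (1.11 ± 0.08, adjusted p = 7.04e-09). Cells with both exceeded KO cells by 0.35 ± 0.08 (adjusted p = 0.00193). Only 255 of 13373 genes, Ccnd2 included, had a log2 change as high or higher in KO against control, and 1416 did with both.

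Ccnd3 (gene 12445, chr17:47505051-47599689), the third D-type cyclin, read 1055, 1070 and 1068 in control, 1078, 1216 and 1244 in KO and 935, 1065 and 906 in Kd cells. With both perturbations it read 1979, 1832 and 1956, and in +/+ cells 1178, 1263 and 1296. The 3 arrays with both lay above all 12 others, and the control arrays lay close together (SD 8.34). Ccnd3 rose 1.79-fold with both (0.84 ± 0.08, adjusted p = 4.89e-08). Its differences from control in KO cells (0.14, 95% interval -0.02 to 0.30, adjusted p = 0.189) and Kd cells (-0.14, -0.30 to 0.02, adjusted p = 0.307) did not pass.

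The E-type cyclins moved in opposite directions with both perturbations. Ccne2 (gene 12448, chr4:11190433-11204779), itself an E2F target, gave 1062, 1199 and 1171 in control, 1045, 1283 and 1243 in KO and 1090, 1052 and 1089 in Kd cells. In +/+ cells it gave 1219, 1113 and 1166, and with both perturbations 288, 351 and 226. The combined cells lay at 25.2% of the control mean and below every other array, and the arrays of the other 4 groups ran together from 1045 to 1283. Ccne2 fell 3.86-fold with both (log2 -1.95 ± 0.12, adjusted p = 3.84e-10), a drop that only 166 of 13373 genes, Ccne2 included, matched or exceeded. In KO cells its difference was 0.05 (95% interval -0.20 to 0.30, adjusted p = 0.799) and in Kd cells -0.08 (-0.33 to 0.16, adjusted p = 0.748).

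Ccne1 (gene 12447, chr7:38097984-38107490), the other partner of Cdk2, was dimmer and moved less. It read 381, 454 and 370 in control, 420, 410 and 376 in Kd and 450, 466 and 553 in KO cells. With both perturbations it read 532, 537 and 499, and in +/+ cells with tamoxifen 497, 506 and 568. By this representing probe set, all 3 tamoxifen-treated groups had means of 489 to 524 and both ethanol-treated groups a mean of 402. Ccne1 rose with both (0.37 ± 0.09, adjusted p = 0.00199), in KO cells (0.27 ± 0.09, adjusted p = 0.0392) and in +/+ cells (0.37 ± 0.09, adjusted p = 0.00623). Against +/+ cells, cells with both differed by -0.00 (95% interval -0.20 to 0.19) and KO cells by -0.10 (-0.29 to 0.10). The KO call was lost on leaving out control array 1 or 3 or KO array 2 or 3 (adjusted p 0.128, 0.155, 0.0568 and 0.166), and the +/+ call on leaving out +/+ array 3 (adjusted p = 0.113). After quantile normalization neither the combined difference (0.12, adjusted p = 0.192) nor that of KO cells (0.16, adjusted p = 0.136) passed. The other Ccne1 probe set, of mean 464, was tested against control in a limma fit of all probe sets. It rose with both (0.26, adjusted p = 0.0343). It did not pass in KO (0.24, adjusted p = 0.111) or +/+ cells (0.20, adjusted p = 0.171).

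Of the kinases, Cdk4 and Cdk2 fell with both perturbations and Cdk6 did not pass against control. Cdk4 (gene 12567, chr10:127063535-127067288), a partner of all D-type cyclins, gave 10007, 9468 and 9255 in control, 9460, 9534 and 9156 in Kd and 9924, 9988 and 9632 in +/+ cells. It gave 7442, 7868 and 8865 in KO cells and 6632, 7190 and 6550 with both perturbations. As for Ccnd2 the arrays formed 3 steps without overlap, here downwards. Cdk4 fell by 0.25 ± 0.07 on the log2 scale in KO (adjusted p = 0.0164) and by 0.50 ± 0.07 with both (1.41-fold, adjusted p = 1.11e-05), and cells with both lay below KO cells by -0.24 ± 0.07 (adjusted p = 0.00735). The KO call was lost without control array 1 (adjusted p = 0.0715) or KO array 2 (adjusted p = 0.0606), and in a model of control and KO arrays alone (adjusted p = 0.0781). It was also lost when limma's arrayWeights weighted the arrays (adjusted p = 0.113).

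Cdk2 (gene 12566, chr10:128697938-128705051), the kinase of the E-type cyclins, read 831, 997 and 947 in control, 966, 835 and 893 in Kd and 890, 986 and 843 in +/+ cells. It read 742, 813 and 789 in KO cells and 767, 818 and 642 with both. The KO and combined arrays overlapped and all 6 lay below all 9 others. Cdk2 fell by 0.31 ± 0.10 with both (1.24-fold, adjusted p = 0.00886), a call lost without combined array 3 (-0.22, adjusted p = 0.0617). The KO difference was -0.24 (95% interval -0.44 to -0.03, adjusted p = 0.0873), and it passed after quantile normalization (-0.34, adjusted p = 0.0149), after centring each array on its median (adjusted p = 0.0197) or without control array 1 (adjusted p = 0.0482).

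Cdk6 (gene 12571, chr5:3341004-3531008), which shares the cyclins of Cdk4, read 1207, 1405 and 1372 in control, 1482, 1359 and 1715 in KO and 1208, 1170 and 1213 in Kd cells. It read 1349, 1403 and 1272 with both and 1046, 1228 and 1125 in +/+ cells. The control, KO and combined arrays overlapped. Cdk6 differed from control by 0.02 with both (95% interval -0.17 to 0.20, adjusted p = 0.886) and by 0.19 in KO cells (-0.00 to 0.38, adjusted p = 0.14). Cells with both differed from KO cells by -0.17 (adjusted p = 0.112), which passed without KO array 2 (-0.25, adjusted p = 0.0352) and after quantile normalization (-0.29, adjusted p = 0.00715). Against +/+ cells Cdk6 was higher in KO cells (0.41 ± 0.09, adjusted p = 0.00259) and with both (0.24 ± 0.09, adjusted p = 0.0258). The latter call was lost without combined array 1 or 2 or +/+ array 1 or 3 (adjusted p 0.059, 0.0834, 0.116 and 0.0592), and after quantile normalization (0.14, adjusted p = 0.147).

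**Figure D2:**
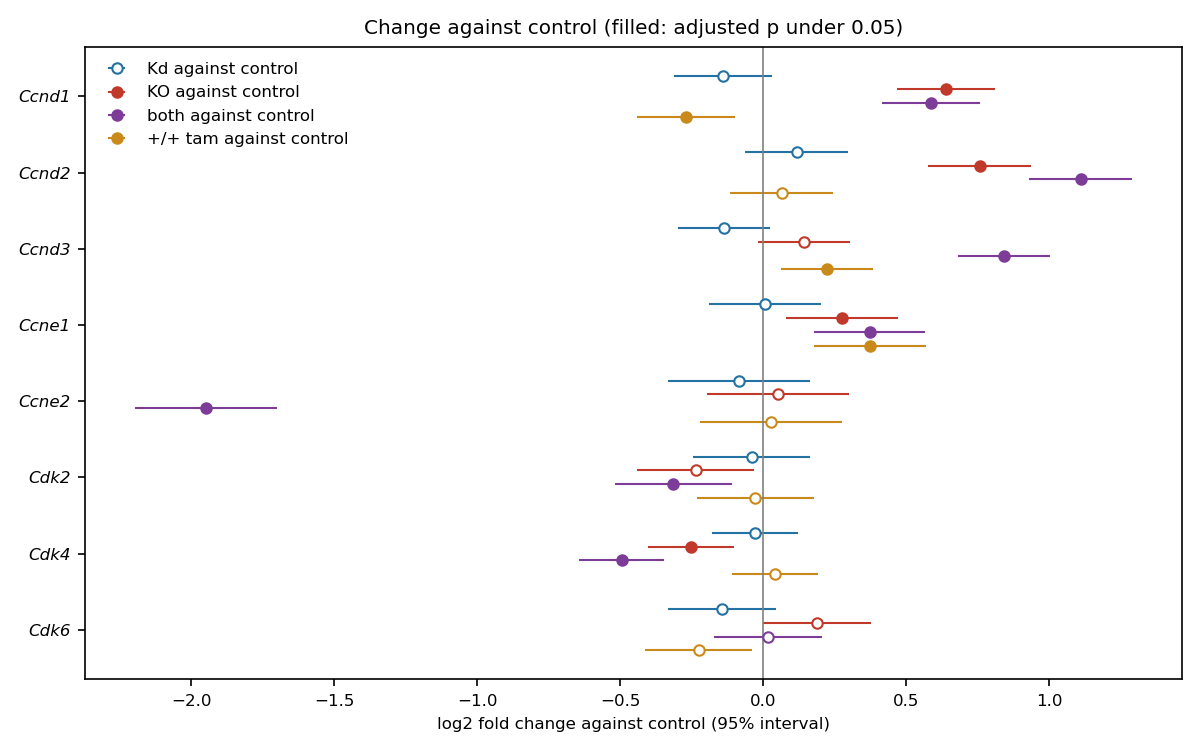
Log2 fold change against control (x axis) with its 95% interval for each gene (y axis) in Kd, KO, combined and +/+ cells, where filled points have an adjusted p under 0.05. All 8 Kd points are open and near 0, and the combined Ccne2 point at -1.95 stands apart from the rest.

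Counted together, 3 of the 8 genes rose and 1 fell in KO against control, where 19.5% of all tested genes rose and 4.64% fell. The median of the 8 was 0.17 beside 0.08 for all genes. After quantile normalization 2 rose and 2 fell, and the share of upward calls among all called genes went from 80.8% to 49.1%. In Kd against control 0 of 8 passed (limma), and 0 had an unadjusted p under 0.05, where 7.51% of all genes rose and 3.02% fell, and 71.3% of calls were upward (53.2% after quantile normalization). By the representing probe sets, the largest Kd difference was Cdk6 at -0.15 (95% interval -0.33 to 0.04). Changes of the sizes seen for Ccnd1 and Ccnd2 in KO cells lay outside every Kd interval of these probe sets. Other probe sets of Ccnd1 and Ccnd2 that passed in Kd cells are given below.

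With both perturbations against control 4 of the 8 genes rose and 3 fell, where 46.1% of all genes rose and 19.3% fell, so a call as such was common. The upward share of calls there was 70.5%, and 49.1% after quantile normalization. The median of all genes in this comparison was 0.16, and -0.02 after quantile normalization. Relative to that median the differences were 0.43 for Ccnd1, 0.95 for Ccnd2, 0.68 for Ccnd3, 0.21 for Ccne1, -2.11 for Ccne2, -0.48 for Cdk2, -0.66 for Cdk4 and -0.15 for Cdk6. The comparisons against control share the 3 control arrays and are not independent of one another.

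In cells with both against Kd cells, which differ by the deletion and its tamoxifen, 4 genes rose (Ccnd1 by 0.73, Ccnd2 by 0.99, Ccnd3 by 0.98 and Ccne1 by 0.37) and 3 fell (Ccne2 at -1.87, Cdk2 at -0.27 and Cdk4 at -0.47). Of all genes 42.8% rose and 20.4% fell there, with an upward share of calls of 67.7% (48.9% after quantile normalization) and a median of 0.13 (-0.02 after it). The Cdk2 call was lost without Kd array 1 (adjusted p = 0.0892) or combined array 3 (adjusted p = 0.129). In cells with both against KO cells, which differ by the hairpin, Ccnd2 rose by 0.35 and Ccnd3 by 0.70, and Ccne2 (-2.00) and Cdk4 (-0.24) fell. In that comparison 36.1% of all genes rose and 20.7% fell, with an upward share of 63.6% (49.0% after quantile normalization). The Cdk4 call was lost in a model of those 6 arrays alone (adjusted p = 0.0609).

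Whether deletion with its tamoxifen acted differently in knockdown and scrambled cells was tested by the interaction, the log2 change with both minus the sum of the single changes. A tamoxifen effect that depends on the hairpin cannot be told apart from it. The interaction passed for Ccnd3 (0.84 ± 0.11, adjusted p = 1.01e-05) and Ccne2 (-1.92 ± 0.17, adjusted p = 1.62e-07), which were at 0.01 and -0.03 by the sum of their single changes. For the other 6 genes it did not pass, with intervals of -0.15 to 0.33 for Ccnd1, -0.02 to 0.49 for Ccnd2, -0.18 to 0.37 for Ccne1, -0.33 to 0.25 for Cdk2, -0.43 to -0.00 for Cdk4 and -0.29 to 0.24 for Cdk6. Cdk4 (-0.21, adjusted p = 0.0965) passed after quantile normalization (adjusted p = 0.00192) and without KO array 1 (adjusted p = 0.029). Over all genes 25.7% had an interaction above 0 and 17.2% below 0 that passed, an upward share of 60% (48.2% after quantile normalization).

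**Figure D3:**
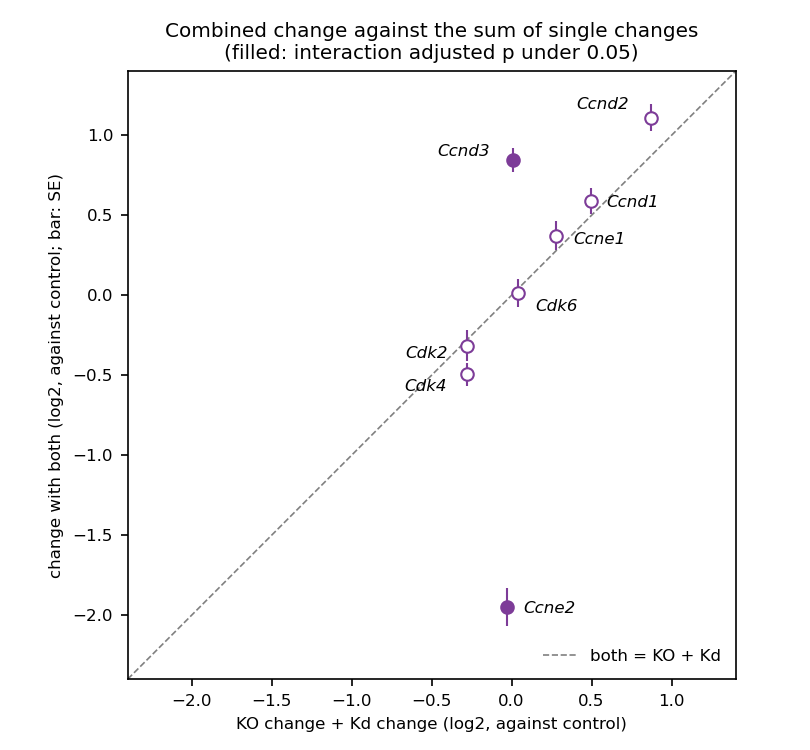
Log2 change with both perturbations (y axis, bar: SE) against the sum of the KO and Kd changes (x axis), all relative to control, for the 8 genes, where the dashed line marks equality and filled points passed the interaction test. Ccnd3 lies above the line by 0.84 and Ccne2 below it by 1.92, and the other 6 genes lie near it.

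Cells with intact Hdac1 had tamoxifen without deletion, and differed from control also in genotype. The viruses they carried are not given, so tamoxifen, genotype and any difference in viruses cannot be told apart here. Genotype and viruses also limit the comparisons that use these cells as the reference. In +/+ cells against control Ccnd1 fell by 0.27 ± 0.08 (adjusted p = 0.0196), and Ccnd3 (0.22 ± 0.08, adjusted p = 0.037) and Ccne1 rose. Of all genes 21.5% rose and 6.93% fell. The upward share of calls was 75.6%, and 49.1% after quantile normalization, where the Ccnd3 difference was 0.12 (adjusted p = 0.233). The Ccnd1 call was lost without control array 2 (adjusted p = 0.0929) or +/+ array 2 or 3 (adjusted p 0.0666 and 0.0544), and the Ccnd3 call without any 1 control array or without +/+ array 2 or 3 (adjusted p 0.0768 to 0.115). Cdk6 was at -0.23 (adjusted p = 0.068), and passed without control array 1 (adjusted p = 0.0372) or +/+ array 2 (adjusted p = 0.0487) and after quantile normalization (adjusted p = 0.00774).

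With +/+ cells as the reference, Ccnd1, Ccnd2 and Cdk6 were higher in KO cells and Cdk4 was lower (-0.29 ± 0.07, adjusted p = 0.00611), where 12.8% of all genes were higher and 11.3% lower. With both perturbations 4 genes were higher (Ccnd1 by 0.86, Ccnd2 by 1.05, Ccnd3 by 0.62 and Cdk6) and Ccne2 (-1.98), Cdk2 (-0.29) and Cdk4 (-0.54) were lower, where 38.2% of all genes were higher and 23.5% lower and the upward share of calls was 61.9% (49.3% after quantile normalization). The Cdk2 call was lost without combined array 3 (adjusted p = 0.107) or +/+ array 2 (adjusted p = 0.081). Ccne1 was the 1 gene of the 8 that passed against control and not against +/+ cells with both perturbations.

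**Figure D4:**
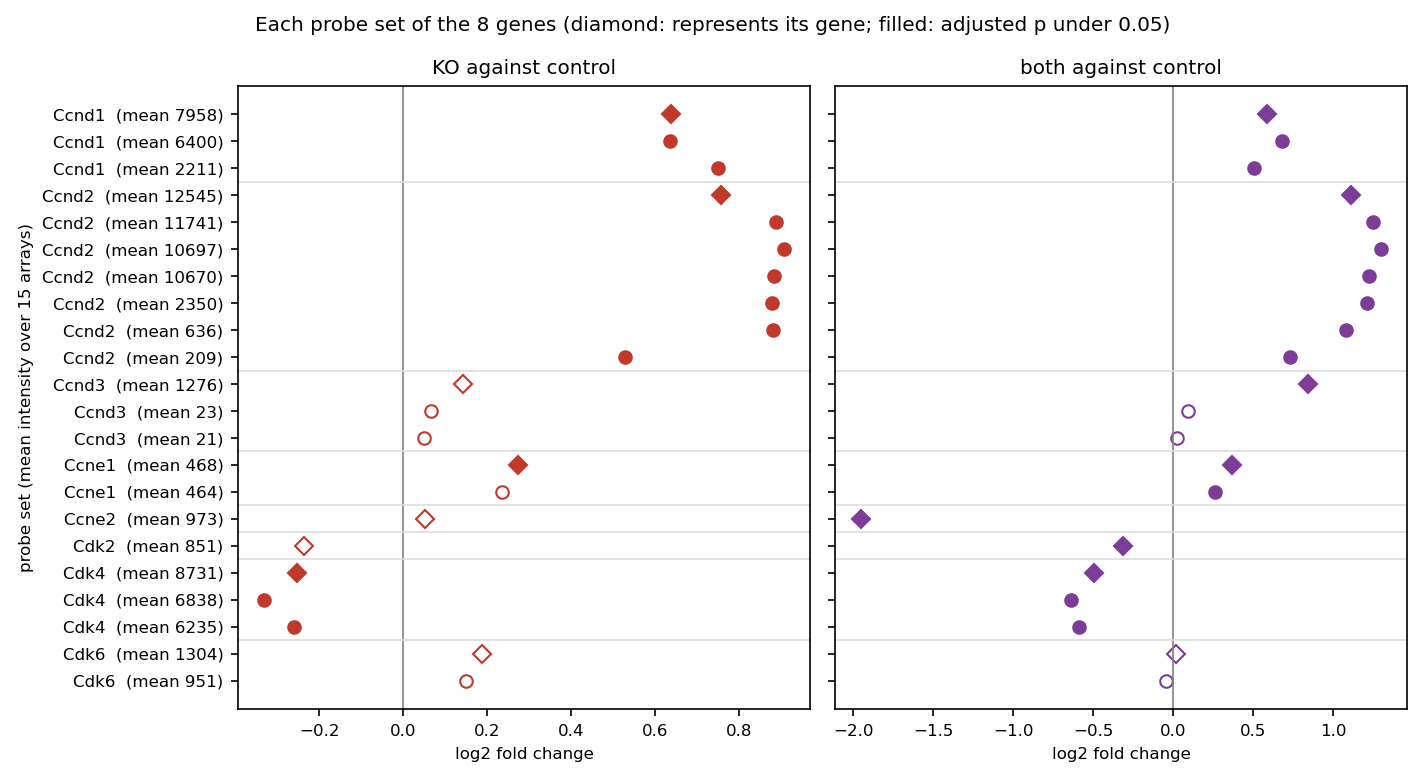
Log2 fold change against control (x axis) in KO cells (left) and cells with both perturbations (right) for the 22 probe sets of the 8 genes that passed the filter (y axis, with the mean intensity of each), where diamonds represent their gene and filled points have an adjusted p under 0.05 in a fit of all probe sets. All 7 Ccnd2 probe sets lie above 0 and all 3 Cdk4 probe sets below 0 in both panels.

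Other probe sets gave further readings of the same genes on the same arrays. In KO against control 11 other probe sets belonged to the 4 genes that passed, 11 had the sign of the representing one and 10 also passed. With both against control the same held for 13 of 13 in sign and 11 in call, and with both against Kd for 13 and 10. With both against KO 9 of 10 shared the sign and 6 also passed, and for the interaction 2 of 2 shared the sign and 0 passed. In +/+ cells against control 5 of 5 shared the sign and 1 passed. Against +/+ cells it was 11 of 11 and 11 in KO cells and 11 of 13 and 10 with both perturbations. The 7 Ccnd2 probe sets ranged in the combined cells from 0.73 to 1.30, and the 3 of Cdk4 from -0.64 to -0.50. The 2 other Ccnd3 probe sets averaged 23.0 and 21.2, below the lowest array median, and differed by 0.09 and 0.02 with both (adjusted p 0.385 and 0.815 in a fit of all probe sets), so the Ccnd3 rise rested on 1 bright probe set, as did the fall of Ccne2, which had 1, and of Cdk2, whose other one was dim and did not pass the filter. Ccnd1 probe sets differed in the interaction, with 0.09 for the representing one, 0.47 for another (adjusted p = 0.00935) and -0.45 for the third (adjusted p = 0.0625). That second Ccnd1 probe set also fell in Kd cells (-0.42, adjusted p = 0.00876). All 7 Ccnd2 probe sets lay above 0 in Kd cells against control but differed in call, and the representing one did not pass. A probe set of mean 10697 rose there by 0.35 (adjusted p = 0.0263) and one of mean 636 by 0.45 (adjusted p = 0.022). The remaining Ccnd2 probe sets did not pass in Kd cells.

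Across the 15 arrays, Ccnd2 ran with Ccnd1 (Pearson r = 0.91) and against Cdk4 (r = -0.92), and Ccnd3 ran against Ccne2 (r = -0.88). These arrays share their groups and their scaling, so the correlations only restate the group pattern. The log2 values of each member were compared with those of the other tested genes, and symbols that are clone or model names were passed over. The closest genes were Prr13 for Ccnd1 (r = 0.99) and Fbxo25 for Ccnd2 (r = 0.99). They were Fgfrl1 for Ccnd3 (r = 0.98) and Frmd8 for Ccne1 (r = 0.94). For Ccne2 they were S100a4 (r = 0.99), the calcium-binding protein whose fall with both perturbations was given above, and the mitotic genes Aurka and Kif18a (both r = 0.98). For the kinases they were Ptbp1 for Cdk4 (r = 0.98), Dync2li1 for Cdk6 (r = 0.92) and Setd1b for Cdk2 (r = 0.88).

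The counts for gene lists below stand beside these shares of all genes. With both against control 46.1% rose and 19.3% fell (32.2% and 33.4% after quantile normalization). In KO against control 19.5% rose and 4.64% fell (13.9% and 14.4%), and in Kd 7.51% and 3.02%. Against +/+ cells it was 12.8% and 11.3% in KO and 38.2% and 23.5% with both. In +/+ against control it was 21.5% and 6.93%. The inhibitors of these kinases were higher in cells with both perturbations. All 7 of 7 rose there against control, with a median of 1.06 beside 0.16 for all genes. Cdkn1c (p57) went from a mean of 149 to 2894 (log2 4.14 ± 0.13, adjusted p = 1.57e-13), Cdkn2b (p15) from 149 to 859 (2.39 ± 0.15, adjusted p = 4.44e-10) and Cdkn1a (p21) from 2811 to 12006 (2.09 ± 0.08, adjusted p = 2.44e-12). The arrays of Cdkn2a overlapped between the groups (1.06 ± 0.43, adjusted p = 0.0415), and after quantile normalization Cdkn2a (adjusted p = 0.153) and Cdkn1b (0.15, adjusted p = 0.0513) no longer passed, which left 5 of 7. Against +/+ cells 6 of 7 rose with both, and Cdkn1c was higher by 2.67. Cdkn1c had also risen in +/+ cells with tamoxifen against control (1.47, adjusted p = 4.13e-07). In KO cells against control 2 rose, Cdkn1a by 1.55 ± 0.08 and Cdkn2b by 0.81 ± 0.15, and Cdkn2c (p18) fell by 0.77 ± 0.08, with a median of 0.09. After quantile normalization 3 fell, Cdkn1b among them (-0.21, adjusted p = 0.0254). Against +/+ cells with tamoxifen 1 rose in KO cells, Cdkn1a (1.33, adjusted p = 6.1e-09), and 3 fell, and Cdkn2b was at 0.18 (adjusted p = 0.425). Cdkn2b had itself risen in +/+ cells against control (0.63, adjusted p = 0.00406). In Kd cells 2 rose, Cdkn1c by 0.65 ± 0.13 and Cdkn2c by 0.57 ± 0.08.

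Among 13 pocket proteins and E2F factors, 5 rose and 5 fell with both perturbations (median -0.09), where 46.1% of all genes rose and 19.3% fell. The pocket proteins Rb1 (1.36 ± 0.09, adjusted p = 9.73e-10) and Rbl2 (1.92 ± 0.10, adjusted p = 4.7e-11) rose and their relative Rbl1 fell by 3.04 ± 0.07 (adjusted p = 6.67e-15). The repressor E2Fs E2f7 and E2f8 fell by 2.67 and 2.29, and the activator E2f1 fell by 0.50. After quantile normalization 3 of the 13 rose and 7 fell. In KO cells 3 rose and 2 fell (median -0.06), with Rb1 at 0.66 and Rbl1 at -0.41, and quantile normalization gave 2 and 6. Rb1 also rose in +/+ cells with tamoxifen (0.41, adjusted p = 0.00274), and KO cells exceeded these by 0.25 (adjusted p = 0.0474). Against +/+ cells 3 of the 13 rose and 4 fell in KO cells, where 12.8% of all genes rose and 11.3% fell.

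The E2F target genes of S phase entry all fell with both perturbations, 19 of 19 with a median of -1.85, and the same counts were found after quantile normalization. Tk1, thymidine kinase, fell by 3.13 ± 0.19, the replication factors Cdc45 by 2.85 ± 0.14 and Cdc6 by 2.65 ± 0.24, and the S phase cyclin Ccna2 by 2.31 ± 0.15 (adjusted p at most 4.85e-08). Ccne2, at -1.95, lay within the range of these genes and Ccne1, at 0.37, lay outside it, since all 19 were below 0. In KO cells 12 of the 19 fell and 0 rose (median -0.34), and after quantile normalization 14 fell, while Ccne2 did not pass there. In +/+ cells with tamoxifen 5 of the 19 fell against control, and against these cells 3 fell in KO cells (median -0.14) and 17 with both perturbations (median -1.47). In Kd cells 0 of 19 passed in limma's test, and 1 fell after quantile normalization.

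**Figure D5:**
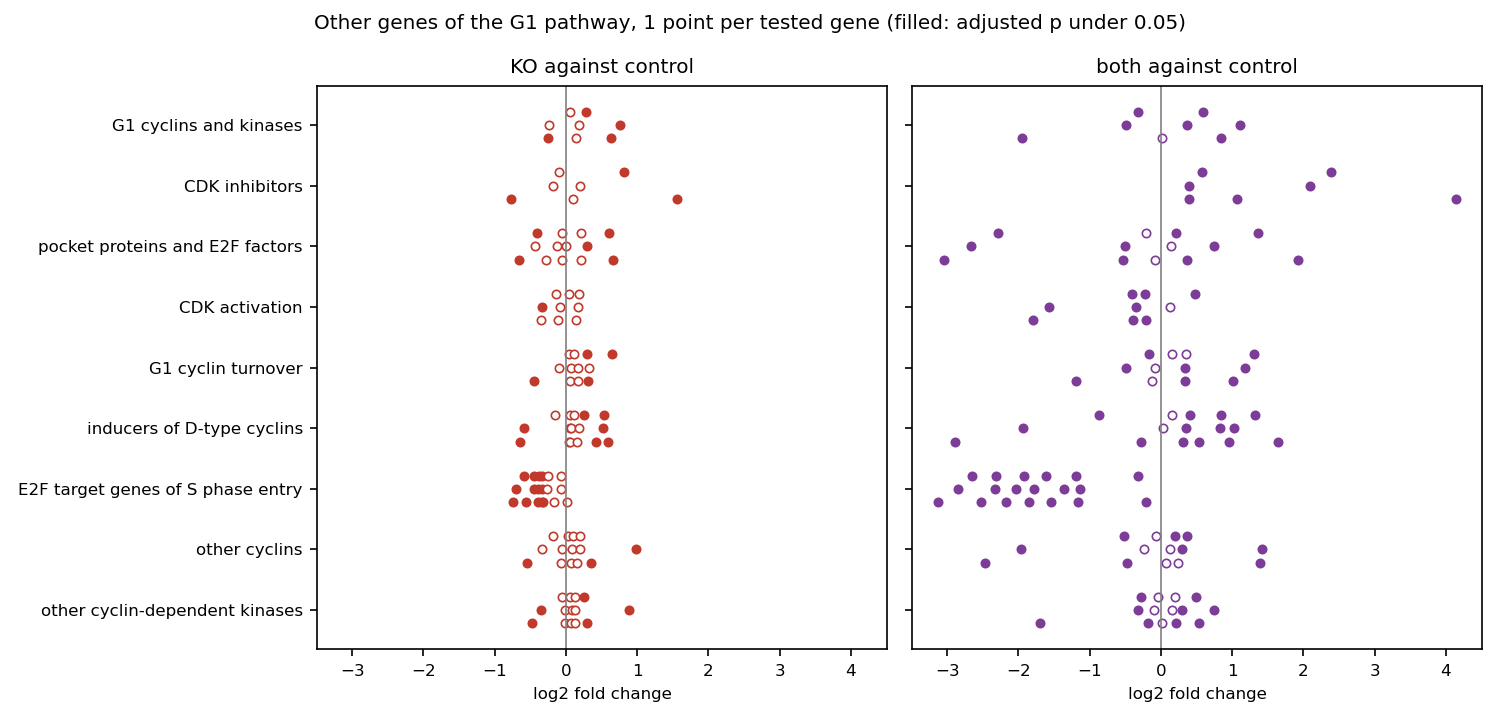
Log2 fold change against control (x axis) in KO cells (left) and cells with both perturbations (right) for the 8 genes and for the tested genes of 8 pathway lists (y axis, vertical offsets only separate points), where filled points have an adjusted p under 0.05. In cells with both, all 7 inhibitors lie above 0 and all 19 E2F targets below 0.

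Of 9 genes for the activation of cyclin-dependent kinases, 7 fell and 1 rose with both perturbations (median -0.35). The phosphatase Cdc25b fell by 1.79 ± 0.16, the kinase-binding subunit Cks2 by 1.57 ± 0.10 and the chaperone Cdc37, which loads Cdk4, by 0.41 ± 0.07, and Ccnh, the cyclin of the Cdk-activating kinase, rose by 0.48 ± 0.08. In KO cells 1 fell, Cks2, and 5 did after quantile normalization, and against +/+ cells 1 fell. Of 12 genes for the turnover of G1 cyclins, 5 rose and 3 fell with both (median 0.24, and -0.05 after quantile normalization, with 4 and 5). For both lists the share of all genes with both perturbations was 46.1% upwards and 19.3% downwards. Fbxw7, which marks cyclin E for degradation, rose by 1.18 ± 0.09, and Skp2, which marks p27 for degradation, fell by 1.19 ± 0.11. In KO cells Fbxw7 rose by 0.30 (adjusted p = 0.0306), which did not pass after quantile normalization (adjusted p = 0.0912), and against +/+ cells, where 4 of the 12 rose and 0 fell, by 0.72 (adjusted p = 3.14e-05).

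Of 16 inducers of D-type cyclins, 10 rose and 4 fell with both perturbations (median 0.38, and 0.16 after quantile normalization). The shares of all genes in that comparison were 46.1% and 19.3%. The AP-1 subunits Fos (1.65 ± 0.24) and Junb (1.32 ± 0.09) rose, and Foxm1 (-2.89 ± 0.15) and the AP-1 subunit Fosl1 (-1.94 ± 0.11) fell. In Kd cells, where no D-type cyclin passed by its representing probe set, 6 of the 16 rose and 2 fell, with Fos at 0.93 and Junb at 0.81. In KO cells 5 rose and 2 fell, and Fosl1 rose there by 0.54 ± 0.11. Fosl1 also rose in +/+ cells with tamoxifen (0.69, adjusted p = 0.000324), and KO cells differed from these by -0.14 (adjusted p = 0.418). Against +/+ cells 3 of the 16 rose and 5 fell in KO cells, where 12.8% of all genes rose and 11.3% fell.

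Other cyclins and kinases moved in both directions, as did all tested genes, of which 46.1% rose and 19.3% fell with both perturbations. Of 14 other cyclins 5 rose and 4 fell with both perturbations (3 and 6 after quantile normalization). The atypical cyclins Ccng1 and Ccng2 rose by 1.42 and 1.39, and the later-acting Ccnb2 (-1.96) and Ccnf (-2.47) fell. Of 14 other cyclin-dependent kinases 5 rose and 4 fell (3 and 7 after quantile normalization), and Cdk1, the mitotic kinase, fell by 1.70 ± 0.10 and Cdk5 rose by 0.74 ± 0.07. Cdk1 had also fallen in KO cells, by 0.47 ± 0.10 (adjusted p = 0.00255), and Ccng1 had risen by 0.98 ± 0.08 (adjusted p = 6.67e-07). Against +/+ cells these differences were -0.35 (adjusted p = 0.0153) and 0.70 (adjusted p = 8.63e-06).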

How the data were processed

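RNA was measured on 15 arrays, 3 per group. Linear intensity values were deposited for each probe set. The authors' summarisation, background correction and scaling are not given in the sources used here. Probe sets with 1 symbol in the platform annotation (34945 of 45037) were used, and Entrez IDs were looked up in a RefSeq table, which changed 0 symbols. The deposited intensities were transformed here to log2(intensity + 16), and fold changes on this scale are too small for dim genes. Each gene was read from its brightest probe set by mean, and the gene was kept if 3 or more arrays had it above their own 40th percentile.

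limma 3.58.1 in R 4.3.3 modelled the 15 arrays by group mean (lmFit, contrasts.fit, eBayes) for 9 comparisons, with Benjamini-Hochberg adjustment over all 13373 genes and a threshold of 0.05. Precision is limited by the number of arrays, with a median standard error of 0.0868 for a log2 fold change. Same-numbered arrays were checked for shared deviations: in 8 comparisons the correlations ran from -0.16 to 0.136, and in 0 of them was every correlation over 0.1, so the numbers were not used as pairs.

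The members and the gene lists were chosen with earlier results of these data known. From each pathway list the 4 genes with the largest absolute change past the threshold were eligible for naming, with Cdkn1a, Cdkn1b, Rb1, E2f1 and Ccna2 in addition, and for each member the 3 genes of highest correlation. Cdkn1b is named only where it passed or lost its call. Promoter windows and gene positions were RefSeq's for GRCm38.p6, matched by symbol and gene ID and searched with Python 3.11.15.

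Each choice was varied alone: robust eBayes with a trend, a model of the compared arrays only, a block for the replicate number, the dim filter absent or at the 60th percentile, a gene's probe sets (those past the filter) averaged, _x_at and _s_at probe sets omitted, arrays quantile normalized, arrays centred on their medians, arrayWeights, a pseudocount of 1, and each array omitted in turn.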

Additional observations from a re-analysis of the deposited data

Results flagged for a closer look

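The genes below are given because the effect of Hdac1 deletion with its tamoxifen differed between knockdown and scrambled cells, by limma's interaction term at an adjusted p under 0.05. Each value in parentheses is the log2 effect of deletion with tamoxifen in knockdown cells minus that in scrambled cells. The parts of deletion and of tamoxifen in these values cannot be told apart. Among the G1 cyclins these were Ccnd3 (0.84) and Ccne2 (-1.92). Among the inhibitors of cyclin-dependent kinases, whose interactions passed upwards for 6 of 7, they were Cdkn1a (0.62), Cdkn1b (0.42), Cdkn1c (3.30), Cdkn2b (1.99) and Cdkn2d (0.61). Pocket proteins and E2F factors went both ways, with Rb1 (1.03), Rbl1 (-2.50), Rbl2 (1.47), E2f1 (-0.45), E2f7 (-1.90) and E2f8 (-1.70). E2F targets of S phase entry passed downwards for 17 of 19, and those named were Ccna2 (-1.56), Cdc6 (-2.22), Cdc45 (-2.13), Tk1 (-2.10) and Mcm5 (-1.90). Genes for the activation of the kinases were Cks2 (-1.29), Cdc25a (-0.52), Cdc25b (-1.01) and Cdk7 (-0.46), and genes for the turnover of G1 cyclins were Fbxw7 (1.07), Skp2 (-0.90), Fbxo4 (-0.72) and Usp2 (0.63). Inducers of D-type cyclins were Foxm1 (-2.11), Fosl1 (-1.75), Myc (-1.17) and Stat5a (0.74). Other kinases of the family were Cdk1 (-1.10), Cdk13 (-0.50), Cdk18 (-0.63) and Cdk19 (0.89), and other cyclins were Ccnb2 (-1.68), Ccnf (-1.39), Ccng2 (0.76) and Ccnk (-0.51). Over all 13373 tested genes 25.7% passed upwards and 17.2% downwards in this test. With 3 arrays per group, no search for single outlying arrays was made.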

How the results depend on the processing

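Of 38 member differences that passed the threshold, 27 passed under every alternative run, and 0 that passed in either fit changed sign. Among 1272 alternative values, 52 that did not pass had the opposite sign. The count of members past the threshold in KO against control was 4 and fell to 2 in a model of only the compared groups and to 2 with arrayWeights, where Ccnd1 and Ccnd2 passed. With arrayWeights 8.02% of all genes rose and 1.52% fell in KO against control, beside 19.5% and 4.64% in the main fit. On leaving out 1 array the count of members ran from 2 (without KO array 2) to 4. In +/+ cells against control it was 3 and ran from 0 (without +/+ array 3) to 3, with 1 without control array 2. The cause was not tested. With the replicate block, 1 call changed: Ccne1 in KO against control had an adjusted p of 0.0558. Same-numbered arrays did not deviate together, so the block pairs arrays that share only a number. Quantile normalization changed the call of 9 of 72 member values and centring that of 7. Of the 9, 8 are given beside their results, and the other was Ccnd1 in both against KO (-0.15, adjusted p = 0.0416). With no filter, the stricter filter, a pseudocount of 1 or without _x_at and _s_at probe sets, 0 calls changed. With 3 arrays per group, differences near the median standard error of 0.0868 could not be resolved, and probe sets near the array medians of 24.1 to 30.7 give little information on direction.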
